A study of Mus musculus with 12 samples.

Results

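The genes described here are 10 genes of the enteroendocrine cell, the hormone-secreting cell of the gut epithelium, out of 11807 genes named on the array. They are the hormone genes Gcg, Nts, Pyy, Sst, Gast, Ghrl and Cck, the granule proteins Chga and Chgb, and the vesicular monoamine transporter Slc18a1. They were chosen by name, and each was read by 1 probe set, the group of short probes that stands for a transcript on an Affymetrix chip. RNA came from colon and stomach tissue of C57BL/6 mice aged 16 weeks that were knockout (KO), heterozygous (HET) or wild type (WT) for Spdef. This gene encodes a transcription factor of the ETS family best known from mucus-secreting cells. Each genotype has 2 arrays in each tissue, 12 in all, and no treatment is given. How the allele was made, which stretch of colon was taken and whether replicates are different animals is not in the labels, so each p-value reflects the spread between samples, which may be technical.

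Enteroendocrine cells are scattered singly among the other epithelial cells of the stomach and intestine, and they release peptide hormones or amines from dense-core granules when they sense nutrients. Which hormone they make depends on the region. Ghrelin and gastrin are known from the stomach, where gastrin comes from G cells of the antrum, somatostatin from D cells in both tissues, and glucagon-like peptides, peptide YY and neurotensin from the L and N cells of the lower intestine. Chromogranins fill the granules of most of these cells, and enterochromaffin cells load serotonin into granules with the transporter that Slc18a1 encodes.

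Levels are given on a scale of log2(intensity + 16), quantile normalized over the 12 arrays, which understates the change of dim genes. A gene was tested in a tissue if at least 2 of its 6 arrays reached the 40th percentile of all probe sets, a log2 level of 6.53, called the filter level below. In each tissue 8 of the 10 genes passed it. Gast and Ghrl did not pass in colon, and Nts and Cck did not pass in stomach. The colon array labelled WT 2 correlated with the other colon arrays at a mean of 0.888 across genes. Next lowest was colon KO 2, at 0.931, and the remaining colon arrays were at 0.949 to 0.956. Colon WT 2 had the bile acid binding protein Fabp6 of the ileum at 14.42, against at most 8.73 in the others. It had the colonic carbonic anhydrase Car1 at 6.65, against at least 13.50. The colon levels of Spdef itself were 9.08 and 9.25 in KO, 10.27 and 9.81 in HET and 10.97 and 8.74 in WT. Its stomach levels were 8.86 and 8.63 in KO, 9.06 and 8.94 in HET and 9.19 and 8.96 in WT. Where its probe set lies relative to the altered part of the gene is not given, so this signal does not check the labels.

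**Figure D1:**
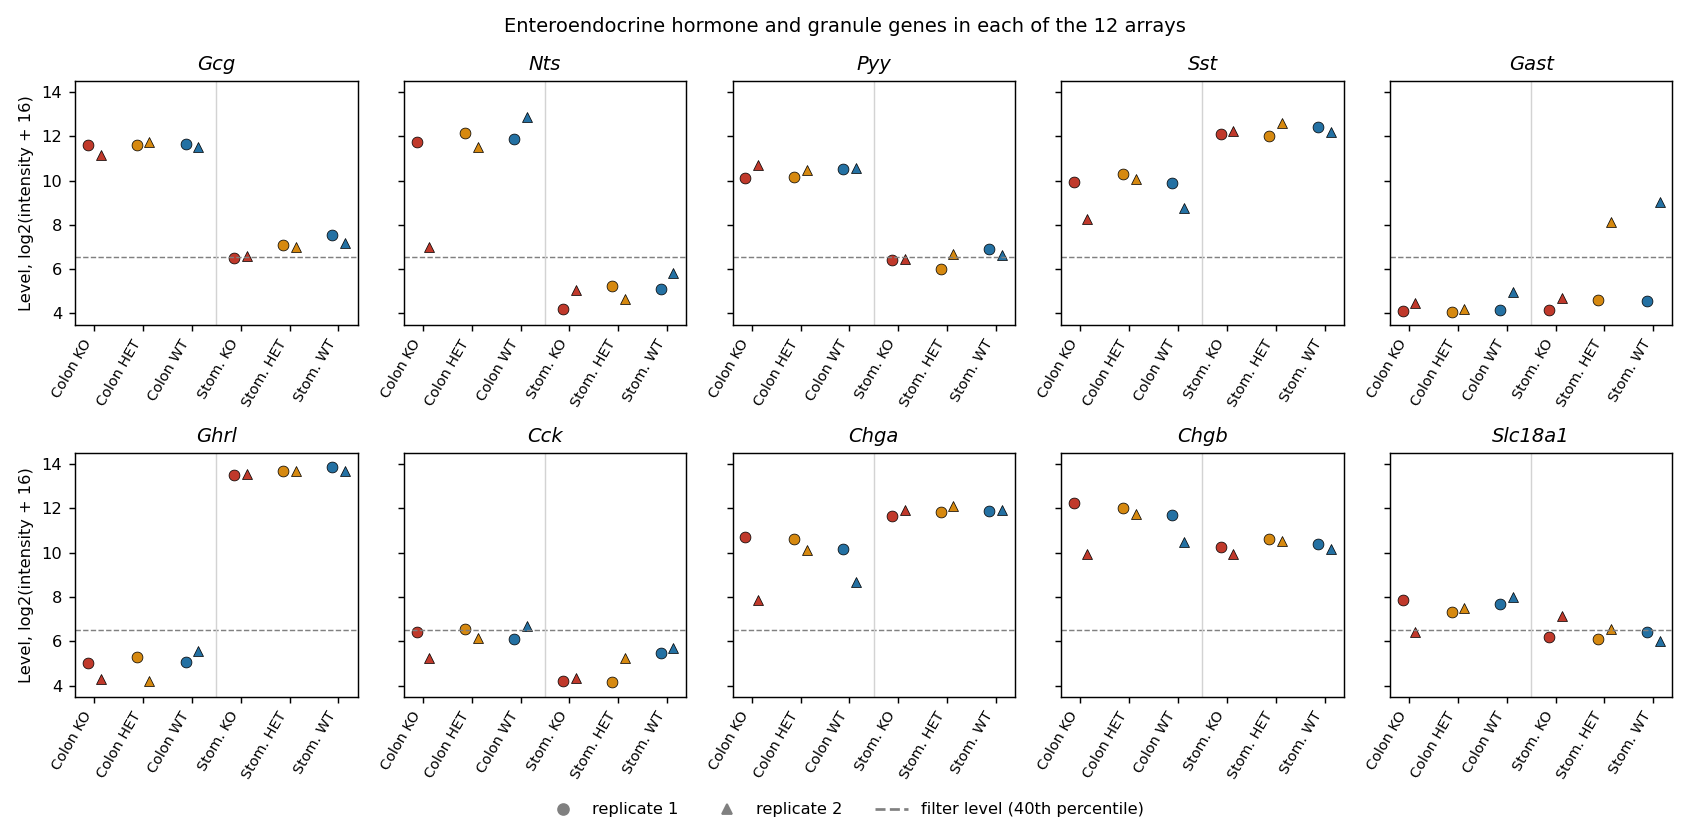
Level of each of the 10 genes, log2(intensity + 16), in all 12 arrays, with colon left and stomach right of the grey line, and KO, HET and WT from left to right within a tissue. Circles are replicate 1, triangles replicate 2, and the dashed line is the filter level of 6.53; the red triangles of colon KO 2 lie apart from the other colon points for Nts (7.01), Chga (7.88), Chgb (9.93) and Sst (8.27).

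The 2 colon KO arrays did not look alike. The array labelled colon KO 2 was the lowest of the 6 colon arrays for 7 of the 8 tested genes, whereas it was the lowest for 18.4% of all 7913 genes tested in colon. The array labelled colon KO 1 was within the range of the HET and WT arrays or close to it for every one of the 8 genes.

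Nts, the precursor of neurotensin, had levels of 11.76 and 7.01 in the colon arrays KO 1 and KO 2, of 12.15 and 11.54 in HET colon and of 11.86 and 12.87 in WT colon. As deposited, its intensities were 3460 and 115 in KO, 4550 and 2900 in HET and 3640 and 7810 in WT. Thus 5 of the 6 colon arrays held Nts among bright genes and 1 KO array did not. Set against the mean of the HET arrays, KO 2 was at -4.83 on the log2 scale, and only 4 of the 7913 genes, Nts included, were that low or lower in that array (0.0505%). KO 1 was at -0.09 for the same gene.

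The granule proteins were low in the same array. Chga, the chromogranin found across enteroendocrine cells, was at 10.71 in KO 1 and 7.88 in KO 2, against 10.62 and 10.13 in HET and 10.17 and 8.67 in WT. Chgb, its companion granule protein, was at 12.25 in KO 1 and 9.93 in KO 2, against 12.04 and 11.77 in HET and 11.72 and 10.48 in WT. Each was highest in KO 1 and lowest in KO 2, and each was second lowest in the array labelled WT 2. The KO groups therefore overlapped both other genotypes for these genes. Relative to the HET mean, KO 2 was at -2.50 for Chga, a value that 0.417% of all genes reached or fell below, and at -1.98 for Chgb (0.72%). Colon WT 2 was at -1.71 and -1.42 for these genes.

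Sst, the somatostatin precursor and an inhibitor of secretion by neighbouring cells, was low in the same arrays. It was at 9.94 in KO 1 and 8.27 in KO 2, against 10.31 and 10.08 in HET and 9.88 and 8.77 in WT. Both KO arrays were below both HET arrays, though KO 1 only by 0.25 relative to their mean, and KO 2 and WT 2 were again the lowest arrays.

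The L cell hormone genes Gcg and Pyy stayed near their HET level in every colon array. Gcg, which encodes glucagon and the glucagon-like peptides, was at 11.63 and 11.15 in KO, against 11.61 and 11.75 in HET and 11.67 and 11.52 in WT. Pyy, which encodes the satiety hormone peptide YY, was at 10.12 and 10.69 in KO, against 10.17 and 10.46 in HET and 10.51 and 10.56 in WT. Their whole ranges over the 6 colon arrays were 0.60 and 0.57, against 5.86 for Nts, 2.83 for Chga, 2.32 for Chgb and 2.04 for Sst. Gcg was lowest in KO 2, at -0.53 relative to the HET mean (10.7% of genes as low or lower), and Pyy was highest there, at 0.37.

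The dimmest tested genes of the set in colon were Slc18a1 and Cck. Slc18a1 was at 7.88 and 6.44 in KO, against 7.34 and 7.48 in HET and 7.68 and 8.02 in WT, so KO 2 alone lay under the filter level. Cck, the gene of the gallbladder-contracting hormone cholecystokinin, was at 6.42 and 5.24 in KO, against 6.55 and 6.13 in HET and 6.10 and 6.70 in WT. Only colon HET 1 and colon WT 2 reached the filter level for Cck, so its differences are those of a gene near the floor. Gast and Ghrl were below that level in every colon array, at 4.06 to 4.98 and at 4.20 to 5.56.

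**Figure D2:**
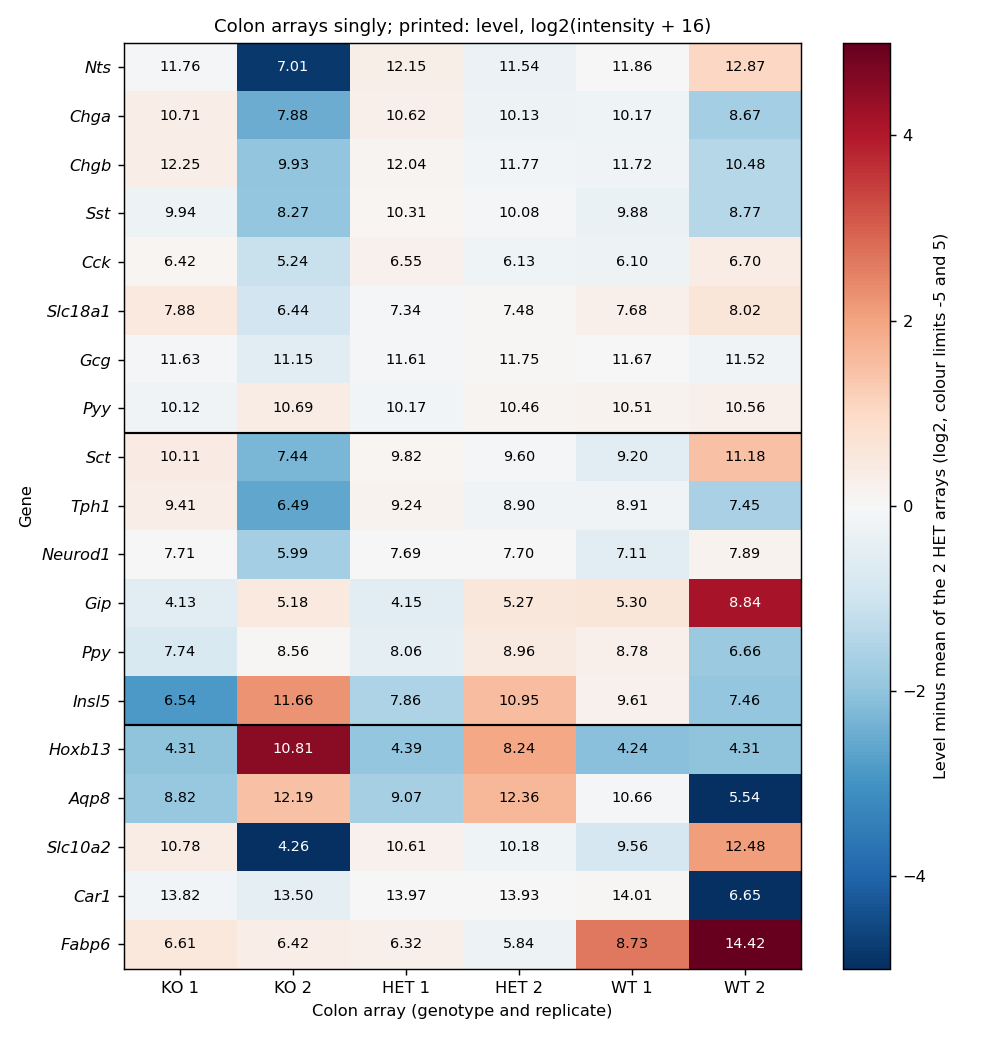
Each colon array singly, KO left, then HET and WT, with 1 row per gene; the printed number is the level, log2(intensity + 16), and the colour its difference from the mean of the HET arrays (colour limits -5 and 5). The 8 tested genes of the set are on top, other enteroendocrine genes in the middle and genes of gut regions at the bottom; colon KO 2 is blue for Nts, Chga, Chgb, Sst, Sct and Tph1 and red for Insl5 and Hoxb13.

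**Figure D3:**
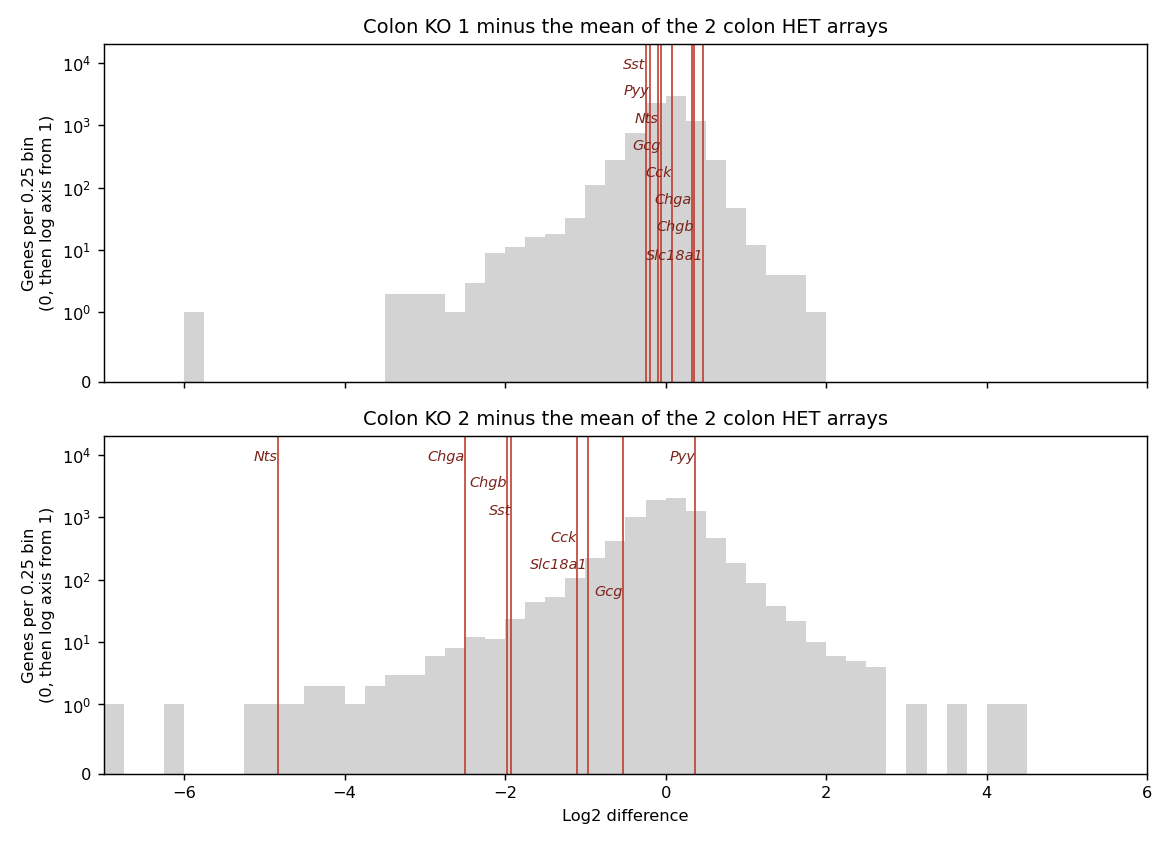
Number of genes (y axis, logarithmic from 1) by log2 difference from the mean of the 2 colon HET arrays (x axis, bins of 0.25) over the 7913 genes tested in colon, for KO 1 above and KO 2 below. Red lines mark the 8 tested genes: in KO 1 they lie between -0.25 and 0.47, and in KO 2 Nts lies at -4.83 and Chga, Chgb and Sst between -2.50 and -1.93.

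Sst, Chga and Chgb were lowest in KO 2 and WT 2, whereas Nts was lowest in KO 2 (7.01) and highest in WT 2 (12.87). Gcg, lowest in KO 2 and WT 2 as well, varied by only 0.60, and Pyy was highest in KO 2. The promoters of Nts, Chga, Chgb and Sst are shown beside those of Gcg and Pyy. They come from RefSeq (GRCm38.p6), run 5′ to 3′ on the strand of the gene, and cover 250 bases before and 50 after its start; 9 of the 10 genes matched. Capitals mark the core of the cAMP response element, TGACG or on the other strand CGTCA.
Nts, chr10:102490369-102490668, minus strand
Nts: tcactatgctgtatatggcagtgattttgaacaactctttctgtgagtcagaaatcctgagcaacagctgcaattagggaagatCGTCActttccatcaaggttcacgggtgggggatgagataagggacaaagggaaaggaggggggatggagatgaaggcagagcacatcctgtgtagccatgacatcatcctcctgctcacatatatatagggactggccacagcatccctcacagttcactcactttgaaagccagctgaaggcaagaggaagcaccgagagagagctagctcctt
Chga, chr12:102554691-102554990, plus strand
Chga: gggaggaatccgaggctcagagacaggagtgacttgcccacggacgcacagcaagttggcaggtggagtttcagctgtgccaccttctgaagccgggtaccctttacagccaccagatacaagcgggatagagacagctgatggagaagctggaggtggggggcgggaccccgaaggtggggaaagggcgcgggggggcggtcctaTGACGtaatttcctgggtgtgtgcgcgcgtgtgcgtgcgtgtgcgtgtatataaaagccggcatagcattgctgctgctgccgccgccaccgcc
Chgb, chr2:132781392-132781691, plus strand
Chgb: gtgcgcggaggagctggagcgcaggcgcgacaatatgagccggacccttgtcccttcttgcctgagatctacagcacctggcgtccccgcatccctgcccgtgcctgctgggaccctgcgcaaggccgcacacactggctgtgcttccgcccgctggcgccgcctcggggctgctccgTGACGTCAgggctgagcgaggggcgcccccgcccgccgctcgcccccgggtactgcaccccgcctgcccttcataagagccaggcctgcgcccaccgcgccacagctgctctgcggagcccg
Sst, chr16:23890795-23891094, minus strand
Sst: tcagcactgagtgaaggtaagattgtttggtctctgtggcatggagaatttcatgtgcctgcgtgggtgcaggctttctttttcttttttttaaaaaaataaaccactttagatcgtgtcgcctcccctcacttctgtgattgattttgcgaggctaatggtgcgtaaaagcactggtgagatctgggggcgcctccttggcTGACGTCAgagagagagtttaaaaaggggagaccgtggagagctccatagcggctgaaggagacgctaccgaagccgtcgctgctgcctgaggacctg
Gcg, chr2:62483604-62483903, minus strand
Gcg: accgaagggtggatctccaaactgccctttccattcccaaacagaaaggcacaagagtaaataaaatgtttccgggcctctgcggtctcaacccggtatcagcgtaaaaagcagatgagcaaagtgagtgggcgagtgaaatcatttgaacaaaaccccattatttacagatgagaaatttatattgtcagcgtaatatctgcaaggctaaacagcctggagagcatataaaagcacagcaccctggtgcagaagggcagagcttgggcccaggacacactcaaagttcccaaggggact
Pyy, chr11:102107783-102108082, minus strand
Pyy: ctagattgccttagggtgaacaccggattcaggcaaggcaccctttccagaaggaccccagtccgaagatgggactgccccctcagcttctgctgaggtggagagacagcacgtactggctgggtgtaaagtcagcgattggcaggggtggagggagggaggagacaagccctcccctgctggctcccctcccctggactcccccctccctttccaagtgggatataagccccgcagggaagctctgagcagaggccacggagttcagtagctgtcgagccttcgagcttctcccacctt

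The core was found in 5 of the 9 windows, those of Nts, Chga, Chgb, Sst and Cck, and not in those of Gcg, Pyy, Gast and Ghrl. It lay 166 bases before the start of Nts, 44 before that of Chga, 72 before that of Chgb, 48 before that of Sst and 47 before that of Cck. In Sst and Chgb it was part of the full palindrome TGACGTCA, which holds the core on both strands. Of all 27025 promoters in the table, 20.9% held the core and 1.85% the full site. Other motifs searched on both strands were TATAAA, found in 3 of the 9 windows (Gcg, Gast and Chga) and 14.2% of all promoters, and the ETS core CCGGAT, found in 2 (Pyy and Ghrl) and 5.99% of all promoters. The windows and motifs were chosen after the levels were seen, and a match is a description of letters only.

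No gene of the set passed the test between genotypes in colon. In KO against WT colon 0 of the 8 tested genes passed, against 0.0505% of the 7913 genes, and 1 had an unadjusted p under 0.05, against 11.2%. That gene was Nts, at 9.39 ± 3.35 in KO and 12.37 ± 0.72 in WT (SD, n = 2 each), a log2 difference of -2.98 (SE 1.18, 95% interval -5.64 to -0.32, limma adjusted p = 0.421). Nts was also the only member of the set whose KO arrays both lay below both WT arrays, against 10.6% of all genes. All 8 differences were negative, with a median of -0.21, against 0.06 over all genes tested. They included -0.13 for Chga (95% interval -1.85 to 1.59), -0.01 for Chgb (-1.43 to 1.41), -0.21 for Gcg, -0.13 for Pyy, -0.22 for Sst, -0.57 for Cck and -0.69 for Slc18a1. Leaving out colon KO 2 alone gave 1.29 for Chga, 1.16 for Chgb and 0.62 for Sst. Leaving out colon WT 1 gave 0.63, 0.61 and 0.34 for the same genes. Set against colon WT 1 instead, the direction was the other one. Its levels were 10.17 for Chga, 11.72 for Chgb and 9.88 for Sst, above the KO means of 9.29, 11.09 and 9.11.

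The KO against HET comparison in colon does not use the mean of the WT arrays. The array labelled WT 2 still entered its normalization, its filter and its estimate of the spread. This comparison gave 0 of 8 genes past the threshold, against 0.0253% of all genes, and none at an unadjusted p under 0.05, against 4.11%. The differences were -2.46 for Nts (SE 1.18, 95% interval -5.12 to 0.20), -1.09 for Sst (-2.22 to 0.04), -1.08 for Chga (-2.80 to 0.64) and -0.81 for Chgb (-2.23 to 0.61), each with limma adjusted p = 0.998. Gcg was at -0.30 (-0.73 to 0.14), Pyy at 0.09 (-0.50 to 0.67), Cck at -0.51 and Slc18a1 at -0.25. The median over the 8 genes was -0.66, against 0.02 over all genes. Sst alone had both KO arrays below both HET arrays, against 15.1% of all genes.

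These values rest on 1 array. Without colon KO 1, which leaves KO 2 as the only colon KO array and assumes that it varies like the other groups, Nts passed in both comparisons, at -5.35 against WT (limma adjusted p = 0.0072) and -4.83 against HET (limma adjusted p = 0.0137), and no other gene of the set did. Without KO 2 the KO against HET difference was 0.33 for Chga, 0.35 for Chgb and 0.47 for Slc18a1, and none of the 8 genes passed. With colon KO 2 and colon WT 2 both left out, an alternative chosen after seeing the data, Nts was at -0.10 against WT (SE 0.50) and -0.09 against HET (SE 0.44), and Cck no longer passed the filter. The other tested genes of the set then lay between -0.39 and 0.53 against WT, and none passed.

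HET against WT colon had 0 of 8 genes past the threshold, against 0.0253% of all genes, with 0 at an unadjusted p under 0.05, against 9.64%, and limma adjusted p from 0.565 to 0.974. Both HET arrays lay above both WT arrays for Sst and Chgb (2 of 8 genes, against 22.3% of all genes) and below both for Pyy and Slc18a1 (2 of 8, against 15.1%). The arrays overlapped for Gcg, Nts, Cck and Chga.

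Other genes of the enteroendocrine cell were read from lists that were, like the set itself, named without reference to how they moved here but with earlier results known. Sct, the precursor of the bicarbonate-releasing hormone secretin, was at 10.11 and 7.44 in colon KO, against 9.82 and 9.60 in HET and 9.20 and 11.18 in WT. Tph1, the enzyme that starts serotonin synthesis in enterochromaffin cells, was at 9.41 and 6.49 in KO, against 9.24 and 8.90 in HET and 8.91 and 7.45 in WT. The transcription factor Neurod1, which drives late enteroendocrine differentiation, was at 7.71 and 5.99 in KO, against 7.69 and 7.70 in HET and 7.11 and 7.89 in WT. KO 2 was the lowest colon array for these 3 genes. Insl5, a relaxin family hormone of L cells in the distal colon, was instead highest there, at 6.54 in KO 1 and 11.66 in KO 2, against 7.86 and 10.95 in HET and 9.61 and 7.46 in WT. Ppy, the pancreatic polypeptide precursor, was at 7.74 and 8.56 in KO, against 8.06 and 8.96 in HET and 8.78 and 6.66 in WT. The tachykinin gene Tac1 was at 9.62 and 10.20 in KO, against 9.81 and 10.43 in HET and 9.88 and 9.47 in WT, so neither was lowest in KO 2. The mean of the 7 hormone and amine enzyme genes on the array was 7.39 and 7.69 in KO, 7.61 and 8.49 in HET and 7.99 and 7.90 in WT.

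None of these listed genes passed in colon. Of the 5 tested hormone and amine enzyme genes (Sct, Insl5, Ppy, Tac1 and Tph1) all 5 had negative KO against HET differences, with a median of -0.36, while against WT 3 were positive and 2 negative, with a median of 0.23. Of the 13 tested genes of granules and prohormone processing, 11 were negative and 2 positive, with a median of -0.71, against 0.02 over all 7913 genes. Against WT their median was -0.11, with 10 negative and 3 positive. The mean level of the 14 granule and processing genes on the array was 7.98 in KO 1 and 7.43 in KO 2, against 8.20 and 8.26 in HET and 8.04 and 7.54 in WT.

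Genes of other cells and of gut regions also set colon KO 2 and colon WT 2 apart. The mean of 11 neuron genes, some of which endocrine cells also express, was 7.69 and 6.99 in KO, 7.86 and 8.18 in HET and 7.79 and 6.96 in WT. All 10 neuron genes tested were negative in KO against HET, with a median of -0.59, and none passed. Hoxb13, a homeobox gene expressed at the tail end of the gut, was at 4.31 and 10.81 in KO, 4.39 and 8.24 in HET and 4.24 and 4.31 in WT. Slc10a2, the bile acid transporter known from the ileum, was at 10.78 and 4.26 in KO, 10.61 and 10.18 in HET and 9.56 and 12.48 in WT. Hoxb13 and Slc10a2 were named after their values were seen. The mean of 8 exocrine pancreas genes was 5.49 and 7.30 in KO, 5.45 and 5.44 in HET and 5.31 and 5.44 in WT. Of the 4 islet genes on the array, Ins2 and G6pc2 were below the filter level in all 12 arrays. Slc2a2 was above it in colon WT 2 only, at 9.43, and Ppy was above it in every colon array, at 6.66 to 8.96. The mean of 5 B and plasma cell genes was 7.98 and 9.44 in KO, 7.68 and 7.18 in HET and 7.08 and 8.50 in WT. That of 7 epithelial genes lay between 12.99 and 13.30 in every colon array. The part of these genes in the low Nts, Chga, Chgb and Sst levels was not tested, and in bulk tissue fewer cells of a type and less RNA per cell cannot be told apart.

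In stomach Ghrl, Sst, Chga and Chgb were above the filter level in every array. Ghrl, the precursor of the appetite hormone ghrelin, was among the brightest genes, at 13.52 and 13.55 in KO, against 13.69 and 13.67 in HET and 13.86 and 13.69 in WT. Sst was at 12.10 and 12.23 in KO, against 12.02 and 12.59 in HET and 12.42 and 12.22 in WT. Chga was at 11.67 and 11.93 in KO, against 11.83 and 12.09 in HET and 11.90 and 11.95 in WT. Ghrl, Sst and Chga kept within ranges of 0.34 to 0.57 over the 6 stomach arrays. Chgb was at 10.25 and 9.92 in KO, against 10.61 and 10.55 in HET and 10.39 and 10.19 in WT.

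Gcg was the gene of the set with the smallest p in stomach. It was at 6.51 and 6.59 in KO, against 7.09 and 6.98 in HET and 7.53 and 7.17 in WT, so the genotypes did not overlap. The KO minus WT difference was -0.80 (SE 0.19, 95% interval -1.24 to -0.36, limma adjusted p = 0.729), with adjusted p from 0.127 to 1 over 21 alternatives. KO minus HET was -0.49 (SE 0.19, 95% interval -0.93 to -0.05, limma adjusted p = 1). The submitters' processing notes name RMA for both KO arrays and MAS5 for the other stomach arrays, so processing and genotype cannot be told apart here. The KO levels also lay at the filter level. Squamous genes of the forestomach were low in the same arrays: the mean of 9 such genes was 4.87 and 5.08 in KO, 9.19 and 6.23 in HET and 7.29 and 7.89 in WT. All 7 that were tested were negative in KO, with a median of -3.89 against WT and -3.36 against HET, none passed, and their part in the Gcg levels was not tested.

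In KO against WT stomach 0 of 8 genes passed, against 0.0127% of the 7857 genes tested, and 1 had an unadjusted p under 0.05, against 3.56%. Gcg, Pyy and Ghrl had both KO arrays below both WT arrays (3 of 8 genes, against 16.7% of all genes). Ghrl differed by -0.24 (95% interval -1.04 to 0.55) and Pyy by -0.35 (-0.94 to 0.24), with -0.16 for Sst, -0.13 for Chga, -0.21 for Chgb and 0.43 for Slc18a1. The median over the 8 genes was -0.23, against 0.01 over all genes. In KO against HET stomach 0 of 8 passed, against 0.0127%, and 1 had an unadjusted p under 0.05, against 1.86%. Gcg, Ghrl and Chgb had both KO arrays lower there (3 of 8, against 13.5%). The differences were 0.08 for Pyy, -0.14 for Sst, -1.96 for Gast, -0.14 for Ghrl, -0.16 for Chga, -0.49 for Chgb and 0.34 for Slc18a1. In HET against WT stomach 0 of 8 passed, as did 0% of all genes, and none had an unadjusted p under 0.05, against 2.2%. Its arrays did not overlap for Chgb, higher in HET (1 of 8, against 17% of all genes), and for Gcg and Ghrl, lower in HET (2 of 8, against 18.5%). They overlapped for Pyy, Sst, Gast, Chga and Slc18a1.

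Gast, the gastrin precursor, was present in some stomach samples and near the floor in others. It was at 4.14 and 4.68 in KO, against 4.61 and 8.13 in HET and 4.58 and 9.04 in WT. As deposited, the intensities were 1.83 and 9.09 in KO, 9.90 and 260 in HET and 7.32 and 491 in WT. Only HET 2 and WT 2 reached the filter level, so the genotypes overlap at the low end. The log2 difference between KO and WT was -2.40 (SE 1.40, 95% interval -5.55 to 0.75, limma adjusted p = 1), and -4.64 to -1.55 over the alternatives. Fcgbp, a mucus protein named after its values were seen, was high in the same arrays, at 4.57 and 4.91 in KO, 6.15 and 7.91 in HET and 4.63 and 7.97 in WT. The mean of the 2 antral and neck mucous genes on the array was 10.13 and 9.85 in KO, 9.96 and 10.23 in HET and 9.51 and 10.15 in WT. The part of these genes' cells in the Gast levels was not tested.

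Pyy, Slc18a1, Nts and Cck were dim in stomach. Pyy ranged from 6.01 to 6.92 and Slc18a1 from 6.03 to 7.15, around the filter level. Nts, at 4.19 to 5.82, and Cck, at 4.17 to 5.68, stayed below it in every stomach array.

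The tests between the tissues, unlike those between genotypes, did call genes of the set. Of the 10 genes, 3 were higher in colon (against 10.5% of the 8393 genes tested) and 3 lower (12.4%) in KO animals. In HET animals 3 were higher (10.3%) and 2 lower (12%), and in WT animals 4 were higher (11%) and 3 lower (16.4%). Gcg, Pyy and Nts were higher in colon, and Ghrl and Sst lower, in each genotype. The processing notes name RMA for both stomach KO arrays and MAS5 for both colon KO arrays. Processing and tissue therefore cannot be told apart in KO, whereas all HET arrays carry the MAS5 note.

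Gcg was 28.6-fold higher in colon in KO, 25-fold in HET and 18.9-fold in WT, with log2 differences of 4.84, 4.64 and 4.24 (SE 0.19 each, largest limma adjusted p = 5.95e-07). Pyy was at least 14.6-fold higher in KO and at least 13.8-fold in HET, set against the filter level because the stomach means were below it, and 13.5-fold in WT (largest limma adjusted p = 1.11e-05). Nts was at least 7.24-fold higher in KO, at least 39.8-fold in HET and at least 57.0-fold in WT (limma adjusted p = 0.0186, 0.00296 and 0.00261). The Nts call in KO was lost without stomach KO 1 (adjusted p = 0.107) or stomach KO 2 (0.0671), and without colon KO 2 the log2 difference was 7.13 rather than 4.76.

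Ghrl was at least 128-fold lower in colon in KO, at least 142-fold in HET and at least 152-fold in WT (largest limma adjusted p = 2.95e-07). Sst was 8.32-fold lower in KO, 4.32-fold in HET and 7.99-fold in WT, and the HET call was lost without stomach HET 2 (adjusted p = 0.112), colon HET 1 (0.0655) or colon HET 2 (0.089). Without colon KO 2 the log2 difference of Sst in KO was -2.22 rather than -3.06, and without colon KO 1 it was -3.90, both still past the threshold. Chga was 5.68-fold lower in KO (limma adjusted p = 0.0429) and 5.67-fold in WT (0.0378). In HET it did not pass, at a log2 difference of -1.58 (95% interval -3.31 to 0.14, limma adjusted p = 0.172). The Chga call was lost in 11 of 21 alternatives in KO and 9 of 21 in WT. Without colon KO 2 the KO difference was -1.10, and without colon WT 2 the WT difference was -1.75. With both arrays left out, Chga remained lower in colon, at -1.09 in KO, -1.59 in HET and -1.75 in WT. The SE in KO and WT was then 0.21, against 0.76 with all arrays.

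Slc18a1 passed in WT only, at least 2.50-fold higher in colon (limma adjusted p = 0.0321), a call lost in 5 of 21 alternatives. Its log2 differences of 0.49 in KO and 1.08 in HET missed the threshold. Chgb did not pass in any genotype, with a log2 difference of 1 in KO (95% interval -0.42 to 2.42), 1.33 in HET (-0.09 to 2.75) and 0.81 in WT (-0.61 to 2.23). Without colon KO 2 the KO difference of Chgb was 2.17, and without colon KO 1 it was -0.16. With colon KO 2 and colon WT 2 both left out, Chgb was higher in colon in each genotype. The differences were then 2.17 in KO, 1.33 in HET and 1.43 in WT (SE 0.18, 0.15 and 0.18, against 0.63 with all arrays). The means of Cck were below the filter level in both tissues of every genotype, as were those of Gast outside WT stomach, and neither gene passed.

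Whether the genotype effect differed between the tissues was tested as an interaction. For KO against HET 0 of 10 genes passed, as did 0% of the 8393 genes, and none had an unadjusted p under 0.05, against 2.18%. For KO against WT 0 of 10 passed, against 0.0238%, and none had an unadjusted p under 0.05, against 4.63%. The adjusted p-values of Gcg, Nts, Pyy, Sst, Gast, Ghrl, Cck, Chga, Chgb and Slc18a1 lay between 0.887 and 1.

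**Figure D4:**
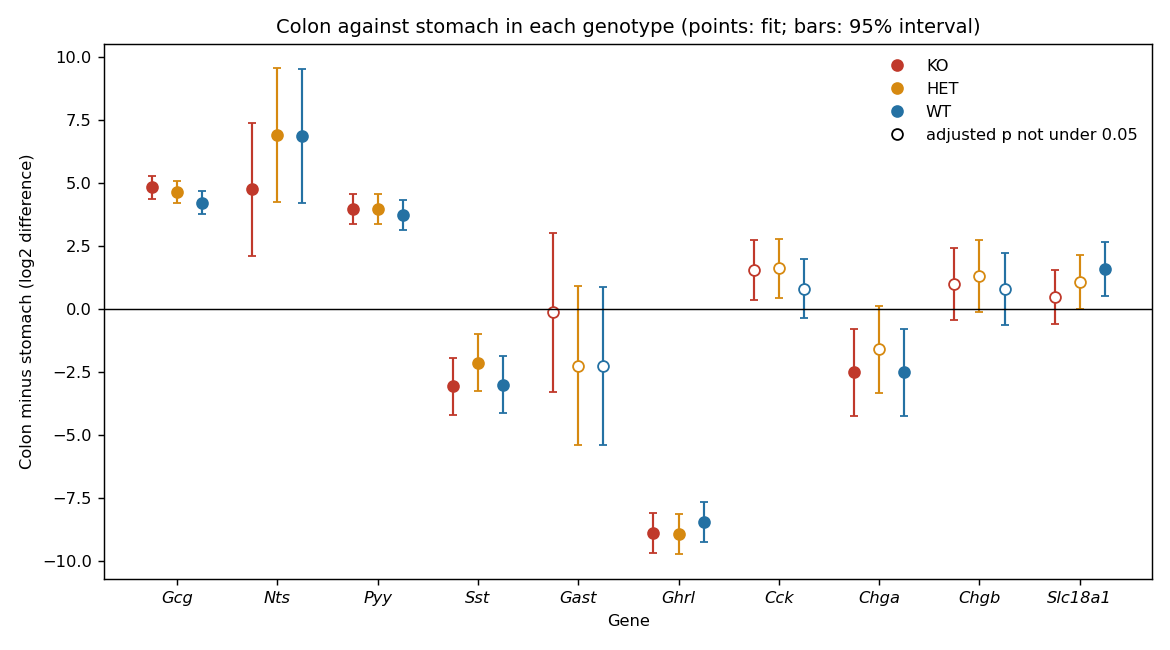
Colon minus stomach log2 difference of each gene (y axis) in KO, HET and WT animals, from left to right, as the fitted value with its 95% interval; open points did not pass the threshold. Gcg, Nts and Pyy lie above 0 and Sst and Ghrl below 0 in every genotype, and the interval of Nts in KO reaches down to 2.10.

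The other enteroendocrine lists divided between the tissues as well. Sct, Ppy and Tph1 were higher in colon in each genotype, Sct by at least 4.74-fold in KO, 9.08-fold in HET and 12.6-fold in WT. Hdc, the histamine-forming enzyme of the stomach's enterochromaffin-like cells, was lower in colon by at least 4.58-fold in KO, 5.79-fold in HET and 4.35-fold in WT, and the transcription factor Isl1 by at least 11.8-fold in KO, 12.3-fold in HET and 10.9-fold in WT. Of 5 tested hormone receptors, Cckar, Cckbr, Sstr2 and Glp1r were lower in colon in all 3 genotypes (4 of 5 genes in each, against 12.4% of all genes in KO, 12% in HET and 16.4% in WT). The Cckbr means were below the filter level in both tissues in KO (stomach 6.30, colon 4.12) and WT (6.41 and 4.43). In HET stomach the Cckbr mean was 6.59, so its calls are those of a gene near the floor. The stomach means of Glp1r, 6.71 to 7.13, were also not far above the filter level. Cckar, a receptor for cholecystokinin, was at 6.27 and 6.54 in KO colon and at 11.72 and 11.70 in KO stomach. Tac1 passed in HET, higher in colon (limma adjusted p = 0.0438). The fatty acid receptor gene Ffar2 was higher in HET (at least 2.85-fold) and WT (at least 2.93-fold). Of the 13 tested genes of granules and prohormone processing, 3 were lower in KO (Scg5, Sytl4 and Syp), 1 in HET (Sytl4) and 3 in WT (Scg5, Sytl4 and Resp18), against 12.4%, 12% and 16.4% of all genes. In the other direction 0 were higher in KO, 2 in HET (Pcsk1 and Scg2) and 0 in WT, against 10.5%, 10.3% and 11% of all genes. Some of these calls were lost in alternatives. In KO they were those of Tph1 (6 of 21), Syp (6 of 20) and Sytl4 (1 of 21). In HET they were those of Sytl4 (11 of 21), Tac1 (10 of 21), Scg2 (4 of 21), Tph1 (3 of 21), Glp1r (3 of 20) and Ffar2 (2 of 21). In WT they were those of Resp18 (12 of 21), Tph1 (3 of 21), Ffar2 (3 of 21), Glp1r (2 of 20) and Sytl4 (1 of 21).

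Across all 12 arrays, the genes whose log2 levels followed each member most closely were found by correlation. For Gcg it was the tight junction gene Cldn3 (Pearson r = 0.994), for Pyy the guanylin gene Guca2a (0.995), for Ghrl the gastric trefoil peptide gene Tff1 (0.998), for Nts Hkdc1 (0.987), and for Sst Macrod1 (0.992). Chga was followed by Hadhb (0.981) and Sst (0.968), Chgb by Slc17a2 (0.969), Slc18a1 by Bloc1s6 (0.936) and Cck by Snurf (0.936). The closest gene to Gast, Polr1e, reached 0.808. These values describe 12 arrays that fall into 2 tissues, so any gene with a large tissue difference scores high.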

How the data were processed

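The deposited values are linear intensities per probe set with a trimmed mean of 500.07 to 500.09 on each array; per the submitters' processing notes the tool was RMA for colon WT 1 and both stomach KO arrays (3 arrays) and MAS5 for the other 9. After 90 control probe sets were left out, 18003 had 1 gene, 287 several and 4336 none, and each gene was represented by its probe set with the highest mean. Values were taken as log2(intensity + 16) and quantile normalized. Group means were estimated in 1 linear model with limma 3.58.1 (R 4.3.3), with an intensity trend and 6 residual degrees of freedom, over the 8393 genes that passed the filter in either tissue. Benjamini-Hochberg adjustment ran over all genes tested in the tissue, or in either tissue, at a threshold of 0.05. Where 1 group mean was below the filter level, a fold is a bound against it. Precision is limited by the number of arrays. On simulated data with 50 genes changed at each size, the fit for colon KO against WT recovered 44% at a log2 change of 1 and 96% at 2. The changed genes were all bright in colon, and the simulated noise of a gene had the same spread in every array, so no array stood apart. These shares therefore do not hold for dim genes such as Cck, or for genes that vary like Nts, whose SE was 1.18. The adjustment is also easier to pass where more genes change. The simulation changed 50 genes at each log2 size from 1 to 4, while 4 of the 7913 genes passed in the data. The shares may thus be too high for the real comparison. The members and gene lists were chosen with earlier results of these data known. By rule the text names all 10 members, genes of the other enteroendocrine lists that passed or differed most, and the genes most like each member by Pearson correlation; HET against WT and the interactions are given as counts and p-values. Alternatives changed the normalization, the offset, the filter, the trend, the tissues fitted, the probe sets tested, a replicate block and each array in turn. Plots used matplotlib 3.10.9 under Python 3.11.15.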

Additional observations from a re-analysis of the deposited data

Results flagged for a closer look

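None of the 10 genes moved in opposite directions in colon and stomach in every array. Among the other enteroendocrine lists, 7 genes had a genotype difference in which every colon array moved one way and every stomach array the other. For KO against HET 0 of 8393 genes passed the limma interaction test (2.18% had an unadjusted p under 0.05), and for HET against WT the difference between the tissues was not tested. In KO against HET, the colon differences were -0.71 for Cadps, a granule exocytosis factor, -0.76 for Cckar and -0.24 for Ptprn, a granule membrane protein, with positive differences in stomach. In HET against WT, they were 0.91 for the prohormone convertase gene Pcsk1, 0.48 for Scg2 and 0.79 for Scg5, both granule proteins, and 0.46 for the somatostatin receptor gene Sstr2, with negative differences in stomach. The colon means of Sstr2, 6.43 in HET and 5.96 in WT, were below the filter level, as was that of Cckar in KO colon, at 6.41. Their colon differences are those of genes near the floor. The set and the other enteroendocrine lists together had 24 genes tested in both tissues. Of these, 3 and 4 genes showed such a pattern in the 2 comparisons, against 4.08% and 6.13% of all 7377 genes tested in both tissues. In KO against WT 0 of the 24 did, against 3.66% of all genes.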

How the results depend on the processing

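The number of the 10 genes past the threshold was 0 under every alternative for HET against WT colon, for the 3 stomach comparisons and for both interactions. For KO against WT colon and for KO against HET colon it ranged from 0 to 1 over the fits that left out 1 array, and was 1 (Nts) without colon KO 1. Between HET colon and HET stomach it ranged from 4 to 8 in such fits, against 5 with all arrays, and was 8 without either colon KO array, and when colon KO 2 and colon WT 2 were both left out. Several differences that had not passed changed sign when 1 array was left out. In KO against WT colon the ranges were -0.45 to 0.03 for Gcg, -0.42 to 0.15 for Pyy, -1.05 to 0.62 for Sst, -1.16 to 0.02 for Cck, -1.54 to 1.29 for Chga, -1.18 to 1.16 for Chgb and -1.41 to 0.03 for Slc18a1, which was at 0.20 with colon KO 2 and colon WT 2 both left out. In KO against HET colon they were -0.20 to 0.37 for Pyy, -1.10 to 0.08 for Cck, -2.50 to 0.33 for Chga, -1.98 to 0.35 for Chgb and -0.97 to 0.47 for Slc18a1. In KO against HET stomach they were -0.26 to 0.43 for Pyy and -0.43 to 0.14 for Sst, and between KO colon and KO stomach -0.39 to 0.15 for Gast, -0.16 to 2.17 for Chgb and -0.23 to 1.21 for Slc18a1. These ranges rest on fewer arrays by construction. With the replicate number as a block, the number of genes past the threshold was 0 in each comparison within a tissue. Between the tissues it was 6 in KO, 5 in HET and 7 in WT, as without the block. The deviations of same-numbered arrays correlated at -0.321 to 0.292 over all pairs of groups. Between colon and stomach of the same genotype they correlated at 0.0776 in KO, 0.0213 in HET and 0.0672 in WT. These values cannot tell whether same-numbered samples came from 1 animal, and the main tests treated all samples as unpaired. Signal over background limits Cck, Gast, Ghrl and Nts in the tissue where they lie below the filter level.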
